A study of Mus musculus with 2 samples.

Results

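The Iroquois (Irx) genes lie in clusters on mouse chromosomes 13 and 8, and the binding of p300 around 5 of them, Irx1, Irx2, Irx3, Irx4 and Irx5, is described here in embryonic heart and midbrain. The regions were chosen by position on the mouse build mm9. The window from 71.8 to 73.7 Mb of chromosome 13 holds Irx1, Irx2 and Irx4, and the window from 94.1 to 95.3 Mb of chromosome 8 holds Irx3 and Irx5. Of the 6383 p300 peaks that the authors listed, 22 have their midpoint in these windows. They are 7 of the 3597 heart peaks (5 on chromosome 13 and 2 on chromosome 8) and 15 of the 2786 midbrain peaks (8 and 7). The genes have no expression value in these data, and all values below belong to peaks, to bins of 100 kb or to shorter steps along the windows.

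Chromatin was immunoprecipitated with an antibody against p300, a histone acetyltransferase and coactivator found at many active enhancers, and the DNA was sequenced. Both groups were untreated CD-1 embryos of embryonic day 11.5. The heart group and the midbrain group are each 1 library from about 150 pooled embryos of mixed sex, so no difference between tissues has a replicate check and no test was made. Each library averages over the cell types of a whole organ or brain region, and fewer cells that bind p300 cannot be told apart from less binding per cell. The protocol text given for both libraries names forebrain, midbrain and limb dissection and does not describe that of the heart. There were 1303861 aligned reads for the heart and 5869671 for the midbrain, a difference in depth of 4.50 times. Values are given in rpm (read counts scaled to the aligned total of the library), and 1 read was worth 0.767 rpm (heart) or 0.170 rpm (midbrain). A count of 0 allows up to 3 reads, or 2.30 rpm for heart and 0.511 rpm for midbrain. The intervals given below were computed without this limit. All intervals are exact 95% binomial or conditional binomial intervals. They cover counting error only, as each tissue has 1 library. In neither library did 2 deposited reads share position and strand (0 repeated positions). The reads carry no molecular identifier, so any other copies of 1 molecule could not be told apart.

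Irx proteins are homeodomain transcription factors of the TALE class. In mammals they are encoded in a cluster with Irx1, Irx2 and Irx4 and a second cluster with Irx3, Irx5 and Irx6, within which neighbouring genes often share parts of their expression pattern and can be reached by long-range enhancers. In the heart, Irx4 is known as a marker and regulator of the ventricular myocardium, Irx3 acts in the ventricular conduction system, Irx5 takes part in the gradient of repolarisation across the ventricular wall, and Irx1 and Irx2 are found in the interventricular septum. In the nervous system Irx genes take part in early patterning of the neural tube, including the midbrain and hindbrain. In the GRCm38.p6 assembly no other protein-coding gene lies between Irx1 and Irx2, between Irx2 and Irx4, or between Irx3 and Irx5. The nearest protein-coding neighbours there are Adamts16 before Irx1, Ndufs6 after Irx4 and Fto before Irx3, while Irx6 follows Irx5 and Mmp2 follows Irx6. That assembly differs from mm9, so it was used for gene order alone. Whether the mm9 windows also hold Irx6, Ndufs6 or other genes was not determined, so values in the windows may belong to such genes as well. Peaks were not assigned to single genes, and the tissue labels were not checked against marker loci.

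Listed peaks were denser in the windows than over their chromosomes, more so in the midbrain list. In the Irx1, Irx2 and Irx4 window the midbrain list had 4.21 peaks per Mb, against 1.84 over chromosome 13 and 1.06 over chromosomes 1 to 19 and X. In the Irx3 and Irx5 window it had 5.83 per Mb, against 1.10 over chromosome 8. The heart list had 2.63 peaks per Mb in the Irx1, Irx2 and Irx4 window, against 1.60 over chromosome 13 and 1.36 over chromosomes 1 to 19 and X. Its 1.67 per Mb in the Irx3 and Irx5 window was close to the 1.60 over chromosome 8. The lists were made at different depths, so densities are compared within a list. The windows were also chosen with earlier results of these data known, and the densities are a description.

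None of the 22 peaks overlapped a peak of the other list. Overlap was rare in the lists as a whole (4.28% of heart peaks and 5.56% of midbrain peaks), so its absence from so few peaks is not a result about the clusters. No heart peak of the windows had another heart peak within 50 kb, midpoint to midpoint, against 44.7% of the whole heart list. A second midbrain peak lay within 50 kb of 6 of the 8 on chromosome 13 and 3 of the 7 on chromosome 8, against 43.0% of the whole midbrain list. The chromosome 8 count is close to the share of the list. Within 100 kb the counts were 2 of 5 heart peaks on chromosome 13, 8 of 8 midbrain peaks on chromosome 13 and 5 of 7 on chromosome 8. With peaks under 1 kb apart joined, the midbrain counts within 50 kb were 4 of 7 regions on chromosome 13 and 2 of 6 on chromosome 8. The share of the whole list was not recomputed within 100 kb or with peaks joined, so these counts have nothing to be set against. The nearest heart and midbrain peaks were 7.79 kb apart, on chromosome 8, and the other heart peaks were 132 to 434 kb from any midbrain peak. Between listed peaks, the longest stretch without one was 298 kb on chromosome 13 (72258923 to 72556814) and 246 kb on chromosome 8 (94887334 to 95133687). The start of the chromosome 8 window, 413 kb from 94100001 to 94513159, also held no listed peak, nor did the first 298 kb of the chromosome 13 window.

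**Figure D1:**
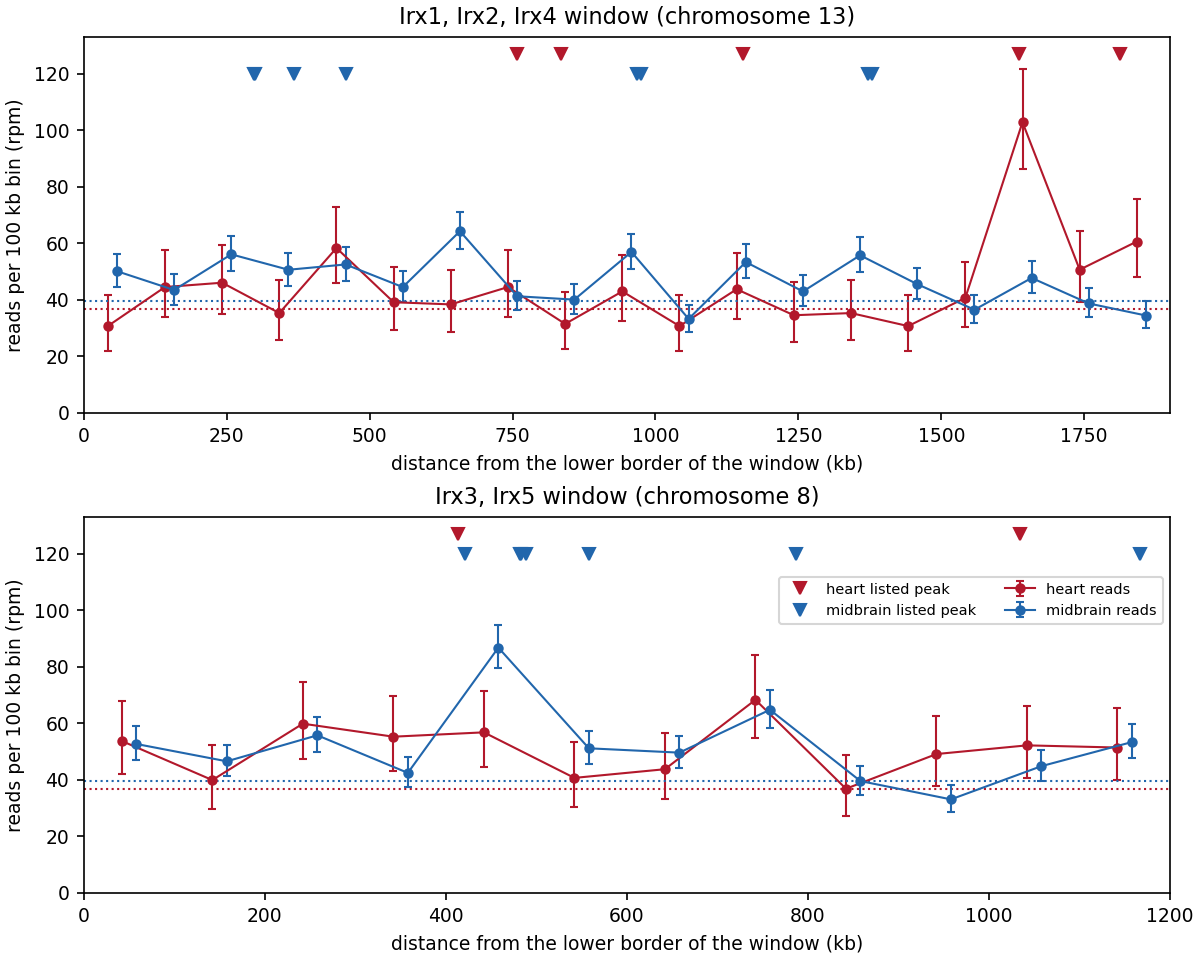
Reads per 100 kb bin (rpm, y axis) along each window (x axis, kb from the lower border), heart in red and midbrain in blue, with exact 95% Poisson intervals. Triangles mark listed peaks and dotted lines the median bin of chromosomes 1 to 19 and X (36.8 rpm heart, 39.5 rpm midbrain). The heart reaches 103 rpm in the bin that starts 1600 kb into the chromosome 13 window, and the midbrain 86.7 rpm in the bin that starts 400 kb into the chromosome 8 window.

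The heart peak with the most reads in either window lay in the Irx1, Irx2 and Irx4 window at chromosome 13, 73435822 to 73437168. It had rank 45 of the heart list and was 1347 bp wide. It held 17 heart reads (13 rpm) and 2 midbrain reads (0.341 rpm), and the heart value was 38.3 times the midbrain value (interval 9.08 to 341). The heart reads came from both strands, 10 from the plus and 7 from the minus strand, and the authors' coverage track reached 8 in the heart and 2 in the midbrain. Heart reads in the peak were 11.5 times as dense as in flanks 5 to 10 kb away (interval 5.07 to 27.1), and midbrain reads 0.291 times (interval 0.0343 to 1.11). The other heart peaks of the windows held 3 to 7 heart reads each, but they were also narrower, at 371 to 799 bp. Relative to its flanks the peak was not the highest, since 4 of the other 6 heart peaks had larger values (14.4, 14.9, 22.7 and 80.9, the last over 1 flank read).

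The other 4 heart peaks of the Irx1, Irx2 and Irx4 window were weaker. The peak at 73612669 to 73613467 (rank 1171) held 7 heart reads (5.37 rpm) and 0 midbrain reads, and the interval of its ratio began at 6.49. Of its heart reads 6 came from the minus strand and 1 from the plus strand. The peak at 72556815 to 72557486 (rank 1398) held 6 heart reads (4.60 rpm) and 0 midbrain reads, with an interval that began at 5.30. These 2 were the heart peaks of the windows without a midbrain read, against 11.6% of the whole heart list.

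The remaining pair on chromosome 13 also held midbrain reads. At 72634902 to 72635596 (rank 3250) there were 5 heart reads (3.83 rpm) and 4 midbrain reads (0.681 rpm), a ratio of 5.63 (interval 1.21 to 28.4). At 72953326 to 72953696 (rank 2589), the narrowest peak of all 22 with 371 bp, there were 3 heart reads (2.30 rpm) and 5 midbrain reads (0.852 rpm), a ratio of 2.70 (interval 0.419 to 13.9). This was the only heart peak of the windows at which the interval included 1. It was also the only one at which the interval for midbrain reads over their flanks lay above 1, with 5.18 times the flank density (interval 1.55 to 13.7). Coverage there reached 8 in the midbrain and 3 in the heart, or, scaled to depth, 1.36 and 2.30.

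In the Irx3 and Irx5 window the heart list had 2 peaks of 5 heart reads (3.83 rpm) each. The peak at chromosome 8, 94513160 to 94513640 (rank 2006), held 2 midbrain reads (0.341 rpm) and had a ratio of 11.3 (interval 1.84 to 118). The peak at 95133688 to 95134260 (rank 2680) held 1 midbrain read (0.170 rpm) and had a ratio of 22.5 (interval 2.52 to 1065). Both were in the lower ranks of the heart list, with 55.7% and 74.5% of it ranked better. With so few reads the sizes of the ratios are known only within these wide bounds.

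The midbrain peak with the most reads lay in the Irx1, Irx2 and Irx4 window at chromosome 13, 73171718 to 73172947. It had rank 86 of the midbrain list and was 1230 bp wide. It held 45 midbrain reads (7.67 rpm) and 1 heart read (0.767 rpm), and the midbrain value was 10 times the heart value (interval 1.70 to 403). The midbrain reads divided into 25 on the plus and 20 on the minus strand, and the highest coverage of 19 lay 4 bp from the midpoint. Midbrain reads were 17.4 times as dense as in the flanks (interval 9.98 to 31.5), above the values of the other 14 midbrain peaks, which ran from 3.05 to 14. Another midbrain peak lay 6.97 kb away at 73178829 to 73179785 (rank 1185), with 20 midbrain reads (3.41 rpm) and 0 heart reads.

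The other 6 midbrain peaks of the Irx1, Irx2 and Irx4 window held 13 to 20 midbrain reads. The peaks at 72097899 to 72098662 (rank 2090) and 72098738 to 72099445 (rank 1366) were separated by only 0.0750 kb, held 14 and 16 midbrain reads with 1 and 2 heart reads, and may be counted as 1 region. Their midbrain flanks held 60 and 51 reads, more than those of any other midbrain peak in this window. These flanks largely overlap, so the 2 values are not independent. The peaks at 72166443 to 72167394 (rank 1178) and 72767350 to 72767943 (rank 1047) held 20 and 16 midbrain reads and 0 heart reads. The peaks at 72258236 to 72258922 (rank 1094) and 72774767 to 72775474 (rank 2345) held 16 and 13 midbrain reads with 2 and 1 heart reads. At rank 1366 and rank 1094 the midbrain over heart ratio was 1.78 (interval 0.418 to 15.9 at each), the lowest among the midbrain peaks with a heart read.

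In the Irx3 and Irx5 window 4 of the 7 midbrain peaks lay in 1 bin of 100 kb, 94500001 to 94600000 of chromosome 8. The first in position, at 94520562 to 94521826 (rank 435), was the widest of the window with 1265 bp and held 32 midbrain reads (5.45 rpm) and 0 heart reads, with an interval of the ratio that began at 1.82. Its coverage had its highest point, 14, at 281 bp from the midpoint. A lower summit lay on the other side of the midpoint. The next 3, at 94581626 to 94582328 (rank 1644), 94582538 to 94583533 (rank 524) and 94587945 to 94588677 (rank 1706), held 15, 26 and 16 midbrain reads with 0, 1 and 0 heart reads. Ranks 1644 and 524 were 0.209 kb apart.

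The last 3 midbrain peaks of that window were more widely spaced. The peak at 94657798 to 94658927 (rank 1369) held 22 midbrain reads (3.75 rpm) and 1 heart read (0.767 rpm), a ratio of 4.89 (interval 0.790 to 202). The peak at 94886137 to 94887333 (rank 437) held 29 midbrain reads (4.94 rpm) and 3 heart reads (2.30 rpm), the most heart reads at any midbrain peak of the windows, and its ratio was 2.15 (interval 0.666 to 11). The peak at 95266823 to 95267198 (rank 2218) held 10 midbrain reads (1.70 rpm) and 0 heart reads. This midbrain value lies below the 2.30 rpm that 0 heart reads allow, and the interval of its ratio began at 0.498. No difference between tissues could therefore be detected there at this depth. Ranks 1644, 1706 and, on chromosome 13, 1047 also held 0 heart reads, with intervals from 0.797, 0.857 and 0.857. At full depth no difference was detected at these peaks either.

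**Figure D2:**
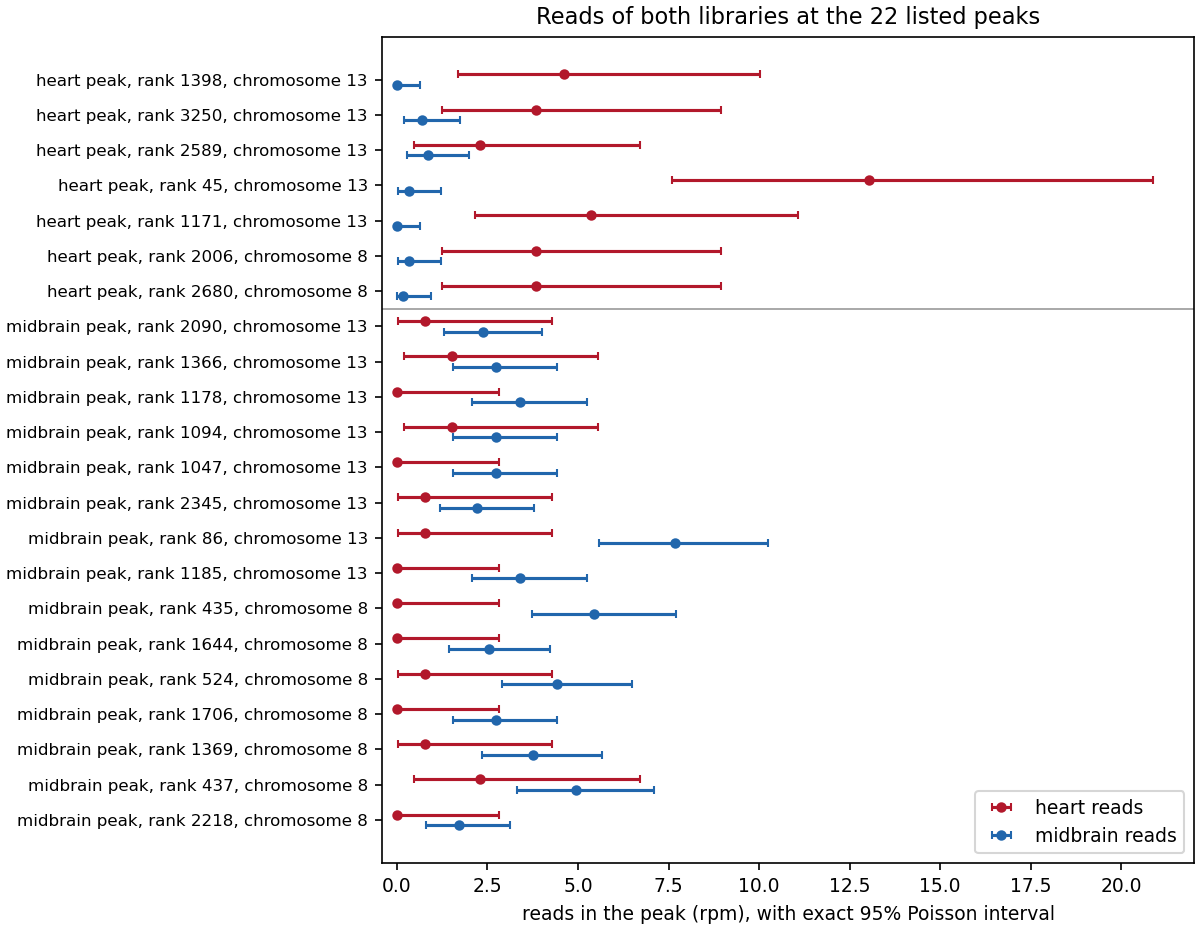
Reads (rpm, x axis, with exact 95% Poisson intervals) of the heart library in red and of the midbrain library in blue at each of the 22 peaks, heart peaks above the line and midbrain peaks below it, in order of position within each window. The heart peak of rank 45 (13 rpm) and the midbrain peak of rank 86 (7.67 rpm) have the most reads of their lists in the windows, and the heart intervals reach far to the right wherever 0 to 3 heart reads were counted.

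**Figure D3:**
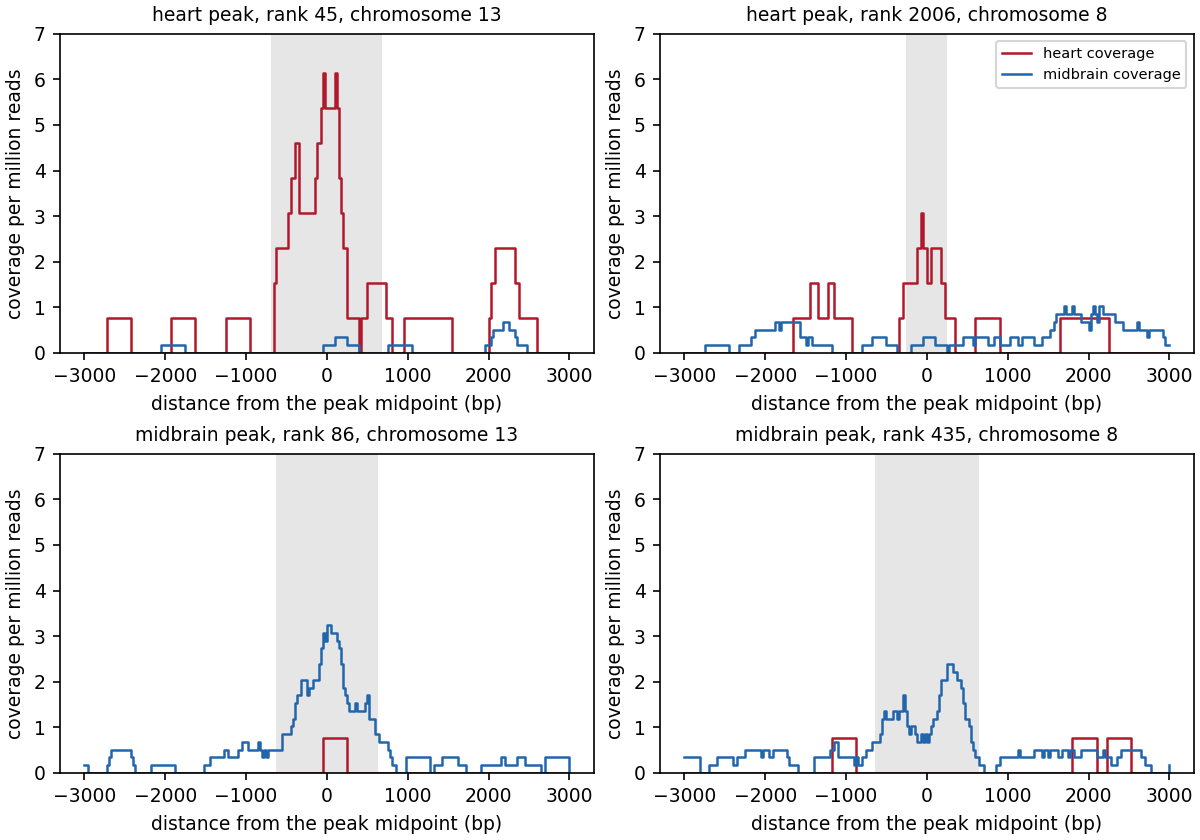
Coverage scaled to aligned reads, as in rpm (y axis) of the heart in red and the midbrain in blue against distance from the midpoint (x axis, bp) of the best-ranked peak of each list in each window, with the listed peak shaded. The heart reaches 6.14 at rank 45, where the midbrain reaches 0.341, and the midbrain reaches 3.24 at rank 86, where the heart reaches 0.767.

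Each list is labelled as the peaks of 1 tissue, and a surplus of that tissue in its own list is part of the selection. A ratio of at least 2 on the heart side, with 0 reads in the other library counted as past it, was reached at 7 of 7 heart peaks, where 98.1% of the whole heart list reached it. At 6 of 7 the whole interval lay on that side (89.9% of the list). With midbrain reads thinned once at random to the depth of the heart, 3 of 7 did. The calls of rank 3250 and of both peaks on chromosome 8 were lost. The shares of the whole lists were not recomputed after thinning, so thinned counts cannot be set against the shares given here. Rank 3250 also lost its call with reads at the middle of their 300 bp (interval from 0.906) and with 1 kb counted around the midpoint (interval from 0.805). For the midbrain, 13 of 15 peaks reached 2-fold on the midbrain side (78.1% of the list). These 13 include all 7 peaks with 0 heart reads, of which ranks 1047, 1644, 1706 and 2218 had intervals that began below 1. The interval lay on the midbrain side at 4 of 15 (21.6%), which were ranks 86, 435, 1178 and 1185. Of these 4, only rank 86 kept its call after the thinning (interval from 2.13), while the other 3 then began at 0.660. Rank 1706 gained one (from 1.18), which made 2 of 15. Rank 1185 also lost its call with reads at the middle of their 300 bp (from 0.977), and rank 1047 gained one with 1 kb around the midpoint (from 1.04). At 7 of the 15 midbrain peaks no heart read was found (40.7% of the list). At full depth the shares in the windows are near those of the lists. The limit is depth, as 14 of the 15 midbrain peaks had 0 to 2 heart reads.

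Summed over peaks, the heart over midbrain ratio at the 5 heart peaks of the Irx1, Irx2 and Irx4 window was 15.6 (38 and 11 reads, interval 7.79 to 33.7), and at the 2 of the Irx3 and Irx5 window 15.0 (10 and 3 reads, interval 3.86 to 84.9). The first value was 7.93 (interval 4.52 to 14.3) when 1 kb around each midpoint was counted, and 38.0 (interval 6.42 to 1540) after midbrain reads were thinned to the depth of the heart. The midbrain over heart ratio was 5.08 at the 8 midbrain peaks on chromosome 13 (160 and 7 reads, interval 2.41 to 12.8) and 6.66 at the 7 on chromosome 8 (150 and 5 reads, interval 2.79 to 20.8). The intervals of the clusters overlap in each list. Over all 7 heart peaks the ratio was 15.4 (interval 8.37 to 30.3), against 9.34 (interval 9.12 to 9.56) at all heart peaks that overlap no midbrain peak. Over all 15 midbrain peaks it was 5.74 (interval 3.24 to 11.2), against 4.29 (interval 4.13 to 4.46) at all midbrain peaks that overlap no heart peak.

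The lists are per tissue, so reads of the other library were set against their own flanks. Whether the authors' peak calling used the other library in any way is not given in the sources used here. At the 7 heart peaks, midbrain reads were 0.955 times as dense as 5 to 10 kb away (14 reads in 4.94 kb, interval 0.513 to 1.64). At all heart peaks without an overlapping midbrain peak they were 1.66 times as dense (interval 1.62 to 1.69). At the 15 midbrain peaks, heart reads were 1.15 times as dense as in the flanks (12 reads in 13 kb, interval 0.576 to 2.08), against 1.93 (interval 1.85 to 2.01) at all midbrain peaks without an overlapping heart peak. So no excess of the other tissue's reads was detectable at the Iroquois peaks as a group. At the midbrain peaks the interval includes the list value of 1.93, so no excess cannot be told from the excess of the list. At the heart peaks its upper limit of 1.64 lies within the list interval of 1.62 to 1.69. Reads of the own library were 13.6 times as dense at the heart peaks (interval 8.96 to 20.7) and 6.37 times at the midbrain peaks (interval 5.52 to 7.34), against 10.5 and 7.35 over the whole lists. Where flanks of close peaks overlap, shared reads were counted at each peak, and the intervals do not allow for this.

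Bins of 100 kb were compared next, as they were not picked by their reads. In the Irx1, Irx2 and Irx4 window the 19 bins held 40 to 134 heart reads and 195 to 377 midbrain reads. The heart over midbrain ratio ran from 0.597 to 2.15 with a median of 0.821, against a median of 0.914 over 25256 bins of chromosomes 1 to 19 and X. In the Irx3 and Irx5 window the 12 bins held 48 to 89 heart reads and 194 to 509 midbrain reads, with ratios from 0.654 to 1.49 and a median of 0.992. Only 1 bin passed 2-fold on the heart side, where 2.07% of all bins did, and none passed it on the midbrain side, where 4.01% did. The interval of the ratio lay on the heart side at 2 bins on chromosome 13 and 1 on chromosome 8 (17.1% of all bins), and on the midbrain side at 5 and 1 (22.1%).

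The bin past 2-fold lay at the upper end of the Irx1, Irx2 and Irx4 window, from 73400001 to 73500000. It held 134 heart reads (103 rpm) and 280 midbrain reads (47.7 rpm), a ratio of 2.15 (interval 1.74 to 2.66), and only 0.443% of all bins held more heart reads. The heart peak of rank 45 lies in it, but the ratio was still 1.89 (interval 1.51 to 2.36) with 117 heart and 278 midbrain reads once listed peaks were left out. In steps of 10 kb the heart reads of this bin were highest at 73430001 to 73440000, which holds the peak, and at 73460001 to 73470000, which holds no listed peak, with 26 reads each against a median of 5 per step in the window. With bins moved by 50 kb the highest ratio of the window was 1.99 (interval 1.57 to 2.52), so no bin passed 2-fold.

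Above that bin, the last bin of the window, 73600001 to 73700000, had 79 heart and 202 midbrain reads, with a ratio of 1.76 (interval 1.34 to 2.29). The bin between them, 73500001 to 73600000, had 66 and 227 reads, with a ratio of 1.31 (interval 0.980 to 1.73). The lowest ratios of the window were 0.597 (interval 0.435 to 0.803) at 72400001 to 72500000, 0.612 (interval 0.429 to 0.854) at 71800001 to 71900000 and 0.633 (interval 0.455 to 0.864) at 73100001 to 73200000. The last of these holds the midbrain peaks of ranks 86 and 1185, and without them its ratio was 0.773 (interval 0.551 to 1.06). The first 2 hold no listed peak. Ratios lower than these 3 were found at 11.9%, 13.4% and 15.7% of all bins, in the same order. Over the window outside listed peaks the ratio was 0.939 (interval 0.878 to 1.0), with 1051 heart and 5038 midbrain reads, against 0.991 over chromosomes 1 to 19 and X.

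In the Irx3 and Irx5 window the lowest ratio, 0.654 (interval 0.506 to 0.837), was at 94500001 to 94600000, with 74 heart and 509 midbrain reads. Only 0.158% of all bins held more midbrain reads, but 16.1% held more heart reads and 18.2% had a lower ratio. This bin holds 4 midbrain peaks and 1 heart peak, and outside them the ratio was 0.732 (interval 0.558 to 0.948) with 68 and 418 reads. The next lowest were 0.795 (interval 0.582 to 1.07) at 94600001 to 94700000 and 0.857 (interval 0.625 to 1.16) at 94200001 to 94300000. The highest ratios were 1.49 (interval 1.10 to 1.98) at 95000001 to 95100000, 1.30 (interval 0.987 to 1.70) at 94400001 to 94500000 and 1.16 (interval 0.878 to 1.52) at 95100001 to 95200000. The first 2 of these hold no listed peak. Outside listed peaks the window as a whole had a ratio of 1.0 (interval 0.927 to 1.08), with 777 heart and 3487 midbrain reads.

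**Figure D4:**
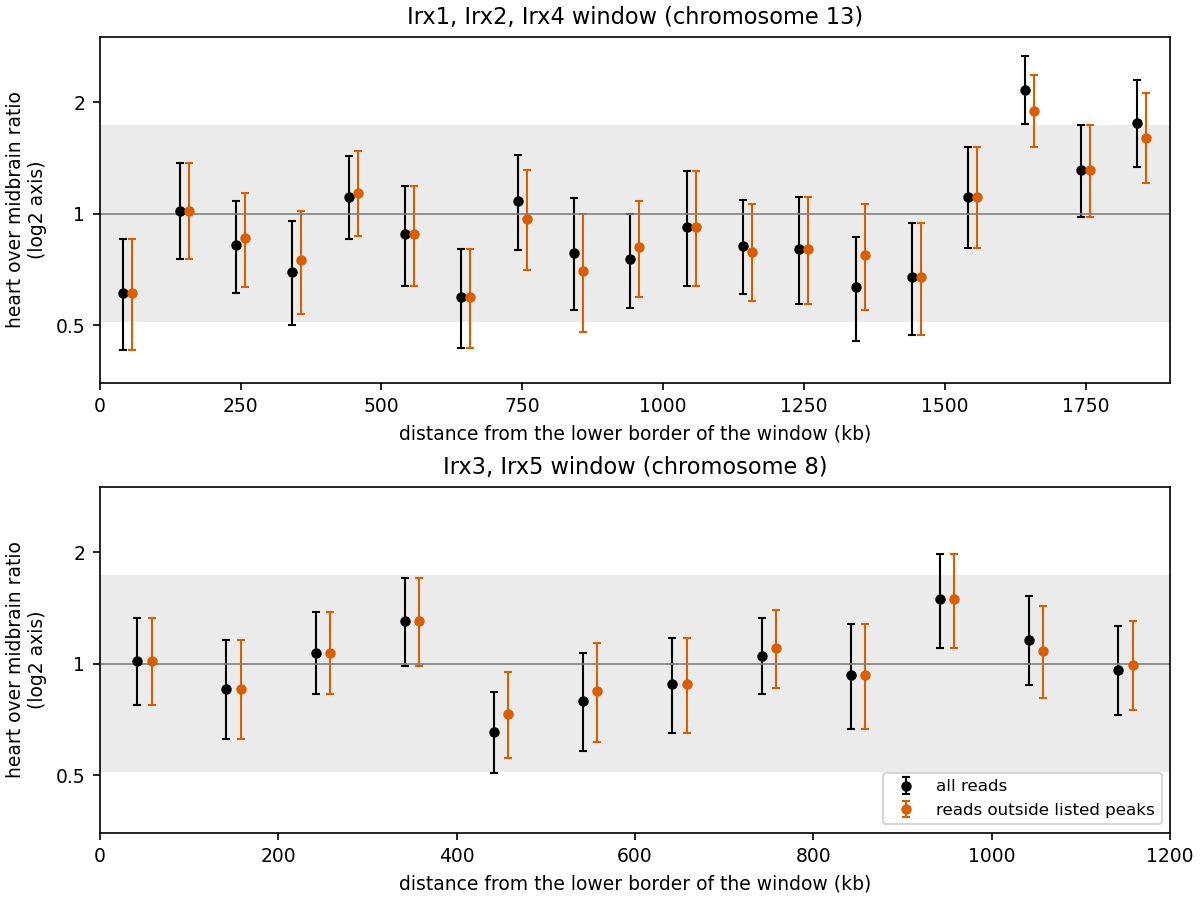
Heart over midbrain ratio of library-scaled reads (y axis, log2 scale) in each 100 kb bin (x axis, kb from the lower border of the window), with exact 95% intervals, for all reads in black and for reads outside listed peaks in orange. The grey band runs from the 5th to the 95th percentile of all bins (0.515 to 1.72), and on chromosome 13 the bins with ratios of 2.15 and 1.76 lie above it.

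Both windows held more reads per kb outside listed peaks than chromosomes 1 to 19 and X did, 0.427 rpm (heart) and 0.454 rpm (midbrain) on chromosome 13 and 0.50 and 0.498 rpm on chromosome 8, against 0.371 and 0.374 rpm. In the Irx3 and Irx5 window 11 of 12 bins lay above the heart median bin of 36.8 rpm and 10 of 12 above the midbrain median of 39.5 rpm, and the bin at 94900001 to 95000000 equalled both medians. On chromosome 13 these numbers were 12 and 15 of 19. Whether base composition or mappability moves with these levels was not tested.

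Some steps of 10 kb were high in both libraries. At least 20 heart reads and at least 57 midbrain reads were found together in 0.151% of 199540 steps of chromosomes 1 to 19 and X, and in 2 of the 120 steps of the Irx3 and Irx5 window. These were 94880001 to 94890000, with 24 heart and 100 midbrain reads around the midbrain peak of rank 437, and 94320001 to 94330000, with 21 and 69 reads and no listed peak. In the Irx1, Irx2 and Irx4 window none of 190 steps passed both minimums. The step at 72090001 to 72100000, with 15 heart and 83 midbrain reads, holds the midbrain peaks of ranks 2090 and 1366. By midbrain reads, whatever the heart reads, 8 of 120 steps on chromosome 8 and 6 of 190 on chromosome 13 had at least 57 (0.940% of all steps). Of these, 3 and 1 held no listed peak, and the 8 include the 2 steps high in both libraries. By heart reads, whatever the midbrain reads, 2 steps in each window had at least 20 (0.887% of all steps). The 2 on chromosome 8 are the steps high in both libraries. The minimums were set near the highest 1% of steps after the reads had been seen.

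Sites outside the lists can hold as many reads as listed peaks. In tiles of 1 kb that touch no listed peak, at least 17 midbrain reads, the median of a midbrain peak, were found once among the 1877 tiles on chromosome 13 and in none of 1184 on chromosome 8, at chromosome 13, 72436001 to 72437000. This tile held 23 midbrain reads and 0 heart reads, with coverage up to 10, and 11 of the 15 listed midbrain peaks of the windows held fewer reads, in other widths. It lies 121 kb from the nearest listed peak, inside the 100 kb bin with the lowest ratio of the chromosome 13 window. At least 6 heart reads, the median of a heart peak, were also found once, at 73466001 to 73467000 with 6 heart and 6 midbrain reads. Over chromosomes 1 to 19 and X such tiles made up 0.0221% for the midbrain and 0.105% for the heart.

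The borders of the windows decide which peaks belong to them. The last midbrain peak below the chromosome 8 window, at 94048658 to 94049369, missed it by 51.0 kb (14 midbrain and 0 heart reads), and the first heart peak above it, at 95370929 to 95371486, by 71.2 kb (5 heart and 3 midbrain reads). Just inside the upper border lies the midbrain peak of rank 2218, 33.0 kb from it. On chromosome 13 the closest peak inside was the heart peak of rank 1171, 86.9 kb from the upper border, and the closest outside was a heart peak at 74108358 to 74108872, 409 kb beyond it, with 5 heart and 3 midbrain reads.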

How the data were processed

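p300 ChIP-seq of heart and midbrain, 1 library each, was analysed from aligned reads, coverage tracks and peak lists. Per the submitters' processing notes and the file headers, positions are on mm9. DNA of 300 to 500 bp was sequenced to 36 bp, per the labels' protocols. The authors deposited reads lengthened to 300 bp (all but 24 heart and 48 midbrain reads), and coverage (signal) at 25 bp steps with a read length of 300 bp, per the file headers. Coverage values were whole numbers, and each track summed to 100.34% of what its reads predict, so no scaling to depth was seen. For the peak caller, threshold and control: not given in the sources used here. Peak lists hold position and rank.

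Each read was placed at its 5 prime end moved by 23 bp (heart) or 34 bp (midbrain), shifts carried over from an earlier processing of these files and not estimated anew. Alternatives placed it at the unmoved end or at the middle of its 300 bp. A peak belongs to a window by its midpoint. Ratios carry exact conditional binomial 95% intervals. Their computation was checked on simulated independent Poisson counts, which hold neither extra spread nor a choice of peaks by their own reads. Flanks leave out bases of listed peaks. Flanks of close peaks can overlap, and sums over peaks then count the shared reads more than once. Bins had at least 20 reads over both libraries. Chromosome lengths were taken as the last aligned read. All peaks in the windows were named, as each list had 8 or fewer per window, and the 3 highest and 3 lowest bins per window. The members, windows and rules were chosen with earlier results of these data known. The 10 kb steps and 1 kb tiles were added after seeing the data. Tools were scipy 1.17.1, numpy 2.4.6 and pandas 2.3.3 under Python 3.11.15, with figures from matplotlib 3.10.9.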

Additional observations from a re-analysis of the deposited data

How the results depend on the processing

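Of 341 recomputed values, 315 kept their call and stayed near the reported value (a ratio within its interval, a count within a factor of 1.5, and, for peaks without a read of the other library, overlapping intervals). At single peaks 9 values lost an interval on the own side and 2 gained one. Another 15 values moved further, and none with an interval off 1 turned its direction. Many of the 341 values could hardly move, so the number kept does not measure robustness. Scaling to other read totals left ratios nearly unchanged, at most from 38.3 to 38.6 at the heart peak with the most reads. Scaling to the sum of the track left the coverage ratios as they were. Counts over both clusters repeat those of the single clusters. Counts carry no interval, so a turn of direction could not be seen in them. At equal depth, after thinning the midbrain, the pooled ratio at the heart peaks on chromosome 13 was 38.0. The interval then lay on the own side at 3 of 7 heart peaks (0 on chromosome 8) and at 2 of 15 midbrain peaks (1 on chromosome 13). Fewer reads widen the intervals, and the shares of the whole lists were not recomputed at this depth. With neighbours sought within 100 kb, 2 heart peaks on chromosome 13 and 5 midbrain peaks on chromosome 8 had one. The shares of the whole lists at this distance were not computed. The own-library enrichment of the midbrain peaks on chromosome 13 was 5.19 with flanks 2 to 5 kb away and 8.90 with flanks 10 to 20 kb away. On chromosome 13, 0 bins passed 2-fold on the heart side with bins moved by 50 kb. With bins of 50 kb, 2 passed it there and 3 passed it on the midbrain side, and 4 had an interval on the heart side. On chromosome 8, bins of 50 kb gave 2 with an interval on the midbrain side. The shares of all bins past these limits were not recomputed for moved bins or bins of 50 kb. The cause was not tested. The low depth of the heart library limits every ratio at a midbrain peak. After thinning, the midbrain peak of rank 2218 held no read in either library and gave no ratio. No replicate could be left out. No paired analysis was possible because each tissue has 1 library.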
